A study of Mus musculus with 4 samples.

Results

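Splicing regulators are RNA-binding proteins that decide which exons of a transcript are kept. A list of 10 such genes with known parts in differentiation was followed in embryoid bodies (EBs), which are floating aggregates of differentiating embryonic stem (ES) cells, that lacked or carried the Hippo pathway kinases Mst1 and Mst2. The list held *Esrp1*, *Esrp2*, *Mbnl1*, *Mbnl2*, *Mbnl3*, *Rbfox2*, *Ptbp1*, *Ptbp2*, *Rbm20* and *Rbm24*. A gene was represented by all probe sets whose annotation gave its symbol, or its older name (*Rbm35a* for *Esrp1*, *Rbm35b* for *Esrp2*, *Rbm9* for *Rbfox2*), and no other symbol. By this rule 8 of the 10 genes were found, with 130 probe sets in all, out of 16358 genes on the array. *Rbm20* and *Rbm24* are not analysed here.

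The ESRP proteins are known to keep epithelial exons in transcripts and are lost when epithelial cells turn mesenchymal. The MBNL proteins are known to turn splicing from the pattern of ES cells towards that of differentiated tissue, and their capture by repeat RNA underlies myotonic dystrophy. RBFOX2 is a member of a family that acts in muscle and neurons but is itself broadly made, *Ptbp1* codes for a repressor of exons made in most dividing cells, and *Ptbp2* for its neural counterpart. Mst1 and Mst2 start the kinase cascade that keeps the coactivator Yap, a partner of the TEAD transcription factors, out of the nucleus.

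RNA was measured on Affymetrix mouse exon arrays in *Mst-/-* EBs and wild type EBs, each at day 8 and day 4, with a single array for each of the 4 combinations. The *Mst-/-* ES cells were derived from blastocysts of crosses between *Mst1+/-*, *Mst2-/-* mice on a C57BL/6 background, and both genes lacked exons of the kinase domain. All EBs grew without the 2i inhibitors and without LIF. The study derived more than 1 *Mst-/-* line, and the labels do not say which was used. The origin of the wild type line is not stated in the sources used here. On the day 8 *Mst-/-* array, a description field reads day 4, while the title and the cell type read day 8. On that array 6 of 7 heart muscle markers were over 1.5-fold higher than on the day 4 *Mst-/-* array, for example *Myl7*, an atrial myosin light chain, at 11.33 against 6.61, which is below background. In what follows it is taken as day 8.

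All values are log2 signals, and a gene's signal is the median over its probe sets. With 1 array per group there was no replicate, so no test was possible and no p-value is given. The error printed is the SD over the probe sets of a gene of their own differences, which covers the probes and not the EBs. A difference was called when it was past 1.5-fold (0.58 on the log2 scale) and the gene exceeded background on either array of the pair. The background of an array, between 6.91 and 7.03, was the 95th percentile over 1013 genes of olfactory or vomeronasal receptors, which serve smell. The differences of these receptor genes had an SD between 0.41 and 0.47 in the 4 comparisons. Between 69.6% and 72.0% of genes were above background on an array, and so were all 8 splicing regulators on all 4 arrays.

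The deletion was visible in *Stk4*, the gene of Mst1. Of its 13 probe sets, 2 lay between 3.83 and 4.80 on the *Mst-/-* arrays, against 11.42 to 12.03 on the wild type arrays, while the remaining 11 differed by -0.30 to 0.39. The lines differed beyond the deletion. By the median over probe sets, in *Mst-/-* EBs the X-linked *Hprt* exceeded wild type EBs at least 16.6-fold at day 4 and 10.5-fold at day 8, while the Y-linked *Eif2s3y* lay at least 10.7-fold lower at day 4 and 11.1-fold lower at day 8. Every difference between the genotypes given below is therefore a difference between these ES cell lines, in which the deletion and the line cannot be told apart. The comparisons also share arrays, since the wild type day 4 array enters both the comparison of genotypes at day 4 and the day change of wild type EBs, and each other array likewise enters 2 comparisons.

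By the median signal over probe sets, the MBNL genes showed the largest differences of the list at day 4 and between the days in wild type EBs. The day 4 order depended on the summary. By the mean, *Esrp2* came before *Mbnl3* and *Mbnl2*, at 1.39 against 1.23 and 0.99. The median of the probe sets' own differences was also taken over those above background on all arrays. It was 2.00 for *Mbnl1*, 1.42 for *Mbnl3*, 1.23 for *Esrp2* and 1.08 for *Mbnl2*. At day 4 *Mbnl1* was 4.26-fold, *Mbnl3* 2.92-fold and *Mbnl2* 2.19-fold higher in *Mst-/-* EBs relative to wild type EBs. At day 8 all 3 were lower in *Mst-/-* EBs, and *Mbnl1* was past 1.5-fold. They rose between day 4 and day 8 in wild type EBs, whereas none of them was called between the days in *Mst-/-* EBs. In bulk EBs, fewer cells of a type and less RNA per cell cannot be told apart.

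Because these 3 genes moved together, the 250 bases before an annotated start of each are shown, from RefSeq on GRCm38.p6. Promoters were given for 5 of the 8 measured genes, these 3, *Ptbp1* and *Ptbp2*, and the table used held no entry for *Esrp1*, *Esrp2* and *Rbfox2*. Capitals mark the GC box GGGCGG on either strand, a site of the Sp1 family, and the rest is in lower case. For *Mbnl1* the downstream one of its pair of annotated starts is shown, and its window lies inside the gene, whose annotated first base is 60472559. The *Mbnl2* window reaches past the annotated first base of that gene, 120275652.
Mbnl1, chr3:60500929-60501178, plus strand: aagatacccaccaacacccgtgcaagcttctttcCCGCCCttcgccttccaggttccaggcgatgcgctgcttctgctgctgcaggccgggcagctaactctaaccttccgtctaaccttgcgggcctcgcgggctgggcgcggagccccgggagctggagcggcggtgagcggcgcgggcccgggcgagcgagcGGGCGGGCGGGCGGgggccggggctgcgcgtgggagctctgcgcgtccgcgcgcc
Mbnl2, chr14:120275419-120275668, plus strand: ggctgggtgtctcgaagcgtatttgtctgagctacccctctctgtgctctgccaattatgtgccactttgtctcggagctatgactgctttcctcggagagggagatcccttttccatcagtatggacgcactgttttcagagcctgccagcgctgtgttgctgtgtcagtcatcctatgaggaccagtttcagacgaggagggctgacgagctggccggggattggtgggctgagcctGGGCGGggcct
Mbnl3, chrX:51205991-51206240, minus strand: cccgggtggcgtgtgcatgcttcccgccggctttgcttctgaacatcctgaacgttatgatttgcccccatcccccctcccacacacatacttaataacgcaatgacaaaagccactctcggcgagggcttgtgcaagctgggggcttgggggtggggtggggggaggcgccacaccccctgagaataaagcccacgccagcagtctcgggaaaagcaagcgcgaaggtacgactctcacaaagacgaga
The GC box, with overlapping matches counted, was found 4 times at *Mbnl1*, 1 time at *Mbnl2* and 0 times at *Mbnl3*. It occurs in 32.7% of 32851 mouse promoter windows of this length. The *Mbnl1* window had 73.6% G and C with 33 CpG sites, the *Mbnl2* window 57.2% with 10, and the *Mbnl3* window 59.2% with 15, against medians of 52.4% and 6 over all windows. None of the 3 windows shown holds GGAATG on either strand, the core of the motif that TEAD factors bind, which occurs in 12.6% of all windows. The E-box CACCTG, which ZEB and SNAI repressors bind, was in none of them and is in 17.2% of all windows. The TATA box TATAAA was in none and is in 12.4%, and CCAAT, bound by NF-Y, was found 2 times at *Mbnl2* and is in 33.8%. The window of the upstream *Mbnl1* start, which is not shown, differed, with 2 matches of TATAAA, 2 of CCAAT and 0 GC boxes, 38.0% G and C and 1 CpG site, and it held neither GGAATG nor CACCTG.

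*Mbnl1* codes for the founding member of the muscleblind-like family. Its signal was 10.49 at day 8 and 10.71 at day 4 in *Mst-/-* EBs, against 11.28 at day 8 and 8.62 at day 4 in wild type EBs. The wild type day 4 array thus stood apart from the other 3. At day 4 the difference between *Mst-/-* and wild type EBs was 2.09 ± 0.65 (SD, 17 probe sets), all 17 probe sets were higher, and 72 of the 11943 genes compared had a larger positive difference. At day 8 it was -0.79 ± 0.30 and all 17 probe sets were lower. Between day 4 and day 8, *Mbnl1* changed by -0.22 ± 0.13 in *Mst-/-* EBs, a decrease in 17 of 17 probe sets that stayed within 1.5-fold, against a rise of 2.66 ± 0.86, or 6.32-fold, in wild type EBs.

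*Mbnl2* codes for the family member known above all from the brain. Its signal was 11.62 at day 8 and 11.24 at day 4 in *Mst-/-* EBs, against 11.92 at day 8 and 10.11 at day 4 in wild type EBs. As for *Mbnl1*, the wild type EBs gave both the highest and the lowest array. At day 4 the difference was 1.13 ± 0.24 (SD, 11 probe sets). At day 8 it was -0.30 ± 0.11, within 1.5-fold, although 11 of 11 probe sets were lower. The gene changed by 0.38 ± 0.22 between the days in *Mst-/-* EBs and rose by 1.81 ± 0.16, or 3.51-fold, in wild type EBs, with all 11 probe sets higher at day 8 in either genotype.

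*Mbnl3*, an X-linked gene, codes for a member known to hold back muscle differentiation in the mouse. Its signal was 11.29 at day 8 and 11.48 at day 4 in *Mst-/-* EBs, against 11.84 at day 8 and 9.94 at day 4 in wild type EBs. The difference was 1.54 ± 0.49 (SD, 8 probe sets) at day 4 and -0.55 ± 0.35 at day 8, where it stayed just within 1.5-fold. Between the days it changed by -0.20 ± 0.21 in *Mst-/-* EBs and rose by 1.90 ± 0.83, or 3.73-fold, in wild type EBs. The day 4 *Mst-/-* array lay 0.36 below the wild type day 8 array, which is less than the SD of 0.42 over the probe sets. Genes of the X chromosome were called higher in *Mst-/-* EBs more often than other genes, 22.0% of 391 X-linked genes against 9.94% of 11552 others at day 4, with median differences of 0.19 and 0.01. At day 8 the shares were 16.0% and 8.16%. The part of the X chromosome in the *Mbnl3* difference was not tested, while *Mbnl1* and *Mbnl2* lie on chromosomes 3 and 14.

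**Figure D1:**
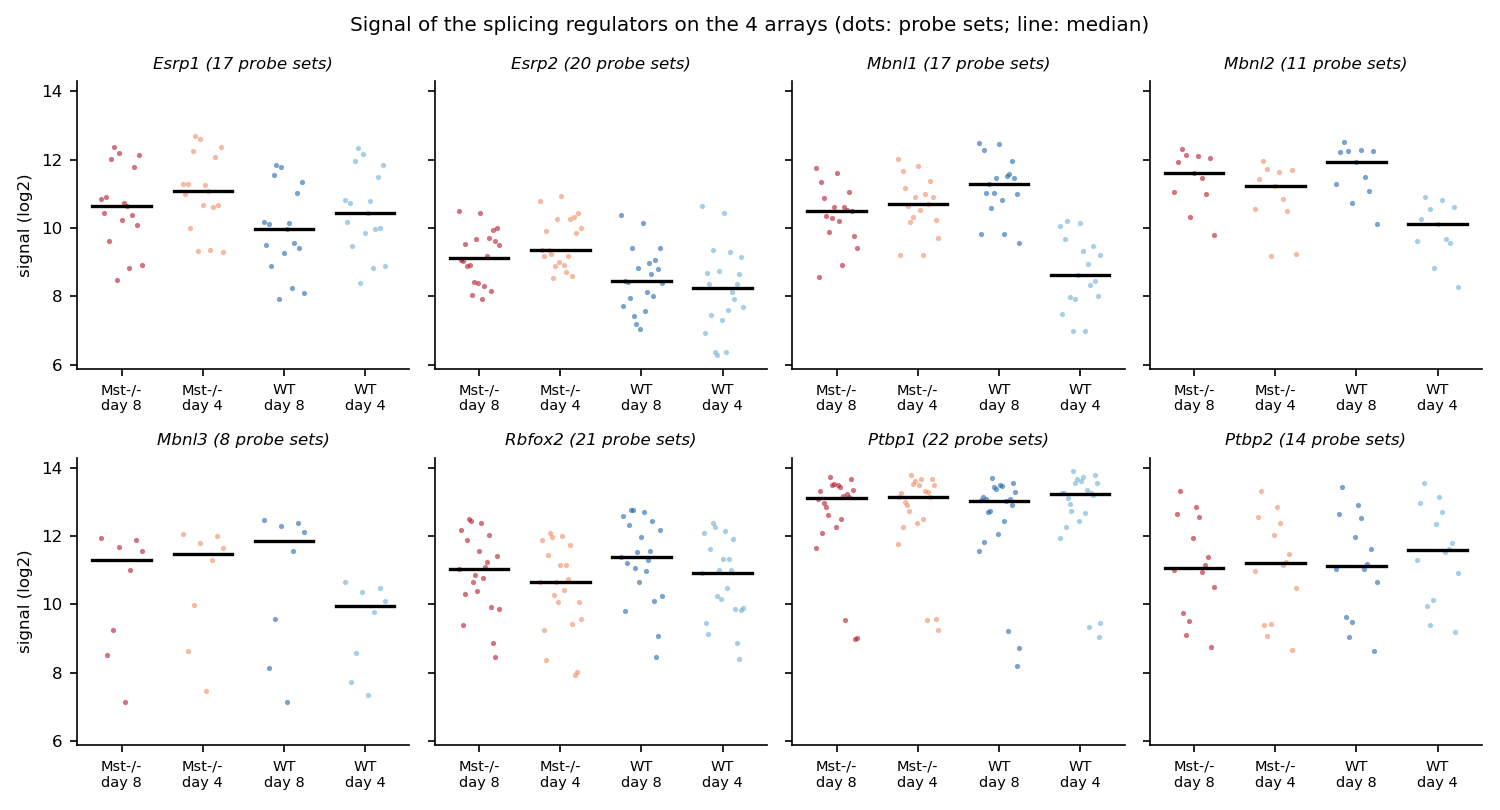
Signal of the 8 splicing regulators on the log2 scale (y axis) on each of the 4 arrays (x axis), with 1 dot per probe set and a line at the median that is used as the gene's signal. In the panels of *Mbnl1*, *Mbnl2* and *Mbnl3* the wild type day 4 array has the lowest median, 8.62, 10.11 and 9.94, while the medians of *Ptbp1* stay between 13.02 and 13.23.

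The day change in *Mst-/-* EBs minus that in wild type EBs was -2.88 ± 0.86 for *Mbnl1*, -1.43 ± 0.21 for *Mbnl2* and -2.10 ± 0.78 for *Mbnl3* (SD over probe sets), with every probe set of the 3 genes on the same side. For no other gene of the list did the day changes of the genotypes differ by more than 0.43, the size for *Esrp2*. All 14 probe sets of *Ptbp2* were also on the same side, at 0.35 ± 0.20. Several probe sets of *Mbnl1* followed their gene only in part. In wild type EBs the probe sets 5538396, 4493533 and 4830385 rose by 0.36, 0.82 and 1.49, each over 1.5-fold less than the gene. The first of these was at 9.41 at day 8 and 9.70 at day 4 in *Mst-/-* EBs, against 9.56 at day 8 and 9.20 at day 4 in wild type EBs, and so was nearly level over the 4 arrays. Another probe set, 4496887, was at 10.35 and 10.63 in *Mst-/-* EBs, against 11.28 and 7.97 in wild type EBs on the same days, a wild type rise of 3.31. Of the 8 probe sets of *Mbnl3*, 3 fell short of the gene's wild type rise by over 1.5-fold, with changes of 1.00, 0.42 and -0.19. The last and dimmest of them, 5334398, lay between 7.15 and 7.47 on the 4 arrays, near background. *Mbnl2* had no such probe set in wild type EBs, and 1 in *Mst-/-* EBs, 4863196, which rose by 1.12. The exons that these probe sets read are not analysed here.

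**Figure D2:**
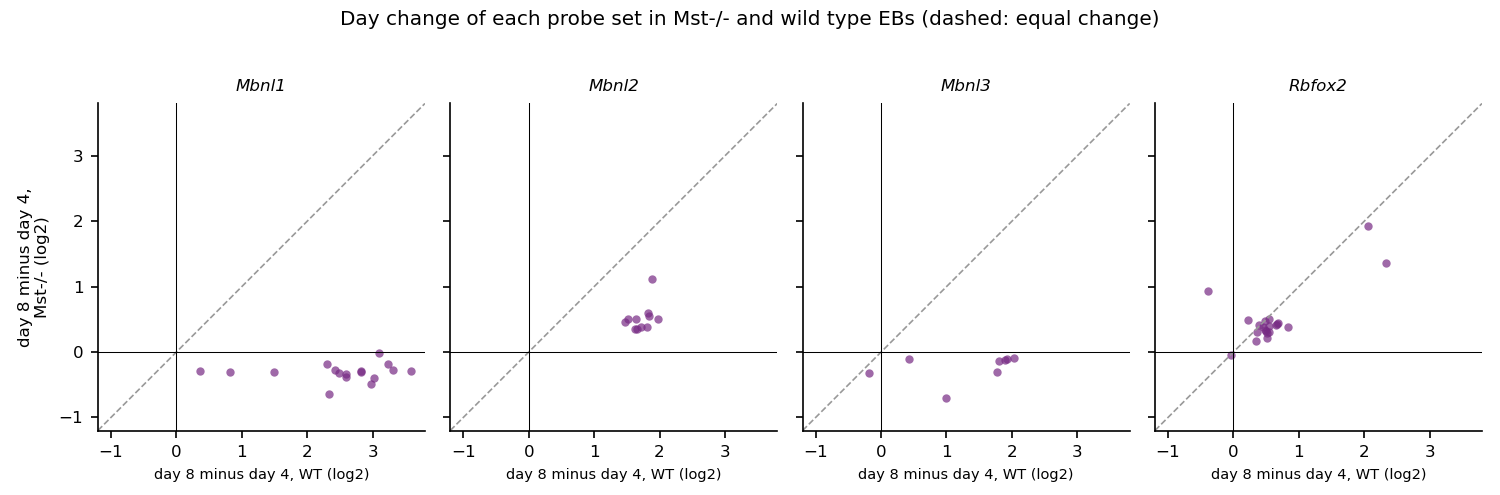
Change from day 4 to day 8 of each probe set on the log2 scale in *Mst-/-* EBs (y axis) and in wild type EBs (x axis) for *Mbnl1*, *Mbnl2*, *Mbnl3* and *Rbfox2*, with a dashed line where both changes are equal. All probe sets of the MBNL genes lie below the line, the *Mbnl1* ones between -0.64 and -0.02 in *Mst-/-* EBs, while most *Rbfox2* probe sets lie close to it.

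Genes whose signals ran most like those of the MBNL genes over the 4 arrays were found among 15206 genes with 3 or more probe sets, by the root mean square distance after each gene was centred on its own mean. For *Mbnl2* they were *Hk1*, the hexokinase of glycolysis, at a distance of 0.03, *Ppfibp2* at 0.06 and *Trmt2b* at 0.07. For *Mbnl3* they were *Col18a1*, a basement membrane collagen, at 0.05, *S100a6*, a calcium-binding protein, at 0.10 and *Bnc2* at 0.13. For *Mbnl1* the nearest genes, *Pof1b*, *Il2rg* and *Bnc2*, were farther off, at 0.24, 0.26 and 0.27, and *Pof1b* and *Il2rg* were below background on the wild type day 4 array, at 5.52 and 5.98. Among the neighbours of *Mbnl1*, *Mbnl3* ranked 5 and *Mbnl2* 26. Among those of *Mbnl2*, *Mbnl3* ranked 38 and *Mbnl1* 340, and among those of *Mbnl3*, *Mbnl2* ranked 15 and *Mbnl1* 48. With 4 arrays such a likeness describes these arrays alone.

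Both ESRP genes were higher in *Mst-/-* EBs on both days. *Esrp1*, which codes for the main epithelial splicing regulatory protein, was at 10.63 at day 8 and 11.09 at day 4 in *Mst-/-* EBs, against 9.98 at day 8 and 10.45 at day 4 in wild type EBs. Its difference was 0.64 ± 0.19 at day 4 and 0.65 ± 0.16 at day 8 (SD, 17 probe sets), or 1.56-fold and 1.57-fold, just past the threshold, with all 17 probe sets higher on each day. The genotypes lay as far apart on either day, and the day change was nearly equal, -0.46 ± 0.16 in *Mst-/-* EBs and -0.47 ± 0.11 in wild type EBs, with 17 of 17 probe sets lower in each. The genes most like *Esrp1* over the arrays were *Kcnn2* and *Vwa3b*, both at a distance of 0.03 and dim, and *Epcam*, the epithelial cell adhesion molecule, at 0.04. *Epcam* was at 12.07 and 12.52 in *Mst-/-* EBs, against 11.49 and 11.96 in wild type EBs at day 8 and day 4.

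*Esrp2* codes for the close relative of *Esrp1* with overlapping targets. It was at 9.12 at day 8 and 9.35 at day 4 in *Mst-/-* EBs, against 8.45 at day 8 and 8.25 at day 4 in wild type EBs. The difference was 1.10 ± 0.89, or 2.14-fold, at day 4 and 0.67 ± 0.49, or 1.59-fold, at day 8 (SD, 20 probe sets). Its probe sets did not move together. At day 4, 15 of the 20 probe sets were between 0.66 and 2.62 higher, and the other 5 lay between -0.13 and 0.50. The value of 2.62 came from probe set 4964476, which was below background on the wild type day 4 array, at 6.27. The 4 probe sets at or under background on 1 or more arrays had a median difference of 2.48, the other 16 of 1.23. Probe set 4316753, the brightest on the wild type day 4 array, was at 10.49 and 10.78 in *Mst-/-* EBs, against 10.37 and 10.64 in wild type EBs at day 8 and day 4. Probe set 5583534 was at 9.50 and 9.99 in *Mst-/-* EBs, against 8.38 and 7.69 in wild type EBs. With the brightest probe set alone the *Esrp2* differences were 0.14 at day 4 and 0.12 at day 8, those of *Esrp1* 0.37 and 0.53, and both calls were lost on both days. *Esrp2* changed between the days by -0.23 ± 0.20 in *Mst-/-* EBs, with 20 of 20 probe sets lower, and by 0.20 ± 0.48 in wild type EBs, where the days did not differ beyond the SD. Its nearest genes were *Zfp750*, an epidermal transcription factor, and *Gadd45a*, a stress response gene, both at 0.03, and *Samd12* at 0.04.

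**Figure D3:**
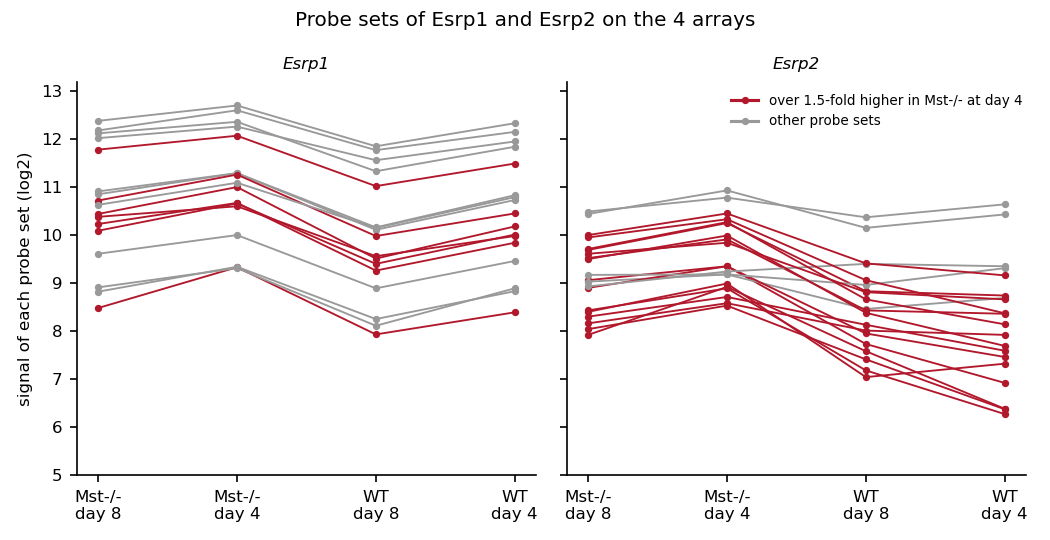
Signal of each probe set of *Esrp1* and *Esrp2* on the log2 scale (y axis) on the 4 arrays (x axis), with 1 line per probe set, in red where *Mst-/-* EBs exceeded wild type EBs by over 1.5-fold at day 4. The *Esrp1* probe sets run in parallel, whereas at day 4 the *Esrp2* probe sets differ by -0.13 to 2.62, with 15 of the 20 in red. The probe set at 2.62 is below background on the wild type day 4 array.

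Most markers of epithelial cells were higher in *Mst-/-* EBs beside the ESRP genes, and their changes between the days were mixed. All 10 epithelial markers were above background on all 4 arrays. Their median signal was 12.02 at day 8 and 11.41 at day 4 in *Mst-/-* EBs, against 11.33 at day 8 and 11.28 at day 4 in wild type EBs. At day 4, 4 of the 10 were over 1.5-fold higher in *Mst-/-* EBs, beside 10.3% of all genes, and none was over 1.5-fold lower. The highest was *Grhl2*, an epithelial transcription factor, with a difference of 1.66 ± 0.32. In all, 8 were above 0 and 2 below, the lowest *Krt8* at -0.40, and the median difference was 0.49. At day 8, 6 of 10 were over 1.5-fold higher, beside 8.42% of all genes, and all 10 were above 0. They were led by *Rab25*, an epithelial Rab GTPase, with 1.90 ± 0.50. Between day 4 and day 8, 3 of 10 rose and 1 fell in *Mst-/-* EBs, with *Krt18*, a keratin of simple epithelia, at 1.28 ± 0.24, and 0 rose and 2 fell in wild type EBs. The median of the markers' own day changes was -0.08 in *Mst-/-* EBs, with 4 above 0 and 5 below. In wild type EBs it was -0.13, with 3 above 0 and 7 below. Of 8 markers of naive pluripotency, 5 were higher and 1 lower in *Mst-/-* EBs at day 4, and 7 were higher at day 8. *Zeb2*, whose product represses epithelial genes, had a difference of -2.15 ± 0.53 at day 4 and -1.41 ± 0.28 at day 8. It was the lowest of 11 mesenchymal markers at day 4. Of these 11 markers, 1 was above 0 at day 4, *Twist1* at 0.22, and 2 at day 8, the highest *Snai1* at 0.14. The part of any cell type in the ESRP differences was not tested.

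Markers of later tissues did not follow the MBNL genes throughout. Among 11 mesenchymal markers, none was higher in *Mst-/-* EBs on either day, 6 were lower at day 4 and 3 at day 8. Between day 4 and day 8, 9 of 11 rose in *Mst-/-* EBs, and 7 rose and 2 fell in wild type EBs. Of the heart muscle markers, 4 of 6 compared at day 4 and 6 of 7 at day 8 were lower in *Mst-/-* EBs, and 6 of 7 rose between the days in each genotype. All 6 erythroid markers were lower in *Mst-/-* EBs at day 8, for example *Alas2*, an enzyme of heme synthesis, at -3.75 ± 1.00. *Mbnl1* and *Mbnl3* thus did not rise in *Mst-/-* EBs between the days, while most mesenchymal and heart muscle markers did. At day 4 the MBNL genes were higher in *Mst-/-* EBs while 10 of 11 mesenchymal and 5 of 6 heart muscle markers had a difference below 0, and the marker lists with genes called higher beside them were the naive pluripotency and epithelial ones above and the neuronal markers. The part of these cell types in the MBNL values was not tested.

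*Rbfox2* was not called in any of the 4 comparisons. It was at 11.03 at day 8 and 10.65 at day 4 in *Mst-/-* EBs, against 11.38 at day 8 and 10.93 at day 4 in wild type EBs. Its differences between *Mst-/-* and wild type EBs were -0.28 ± 0.24 at day 4 and -0.35 ± 0.26 at day 8 (SD, 21 probe sets), with 19 and 20 of the 21 probe sets lower. It changed between the days by 0.38 ± 0.43 in *Mst-/-* EBs and by 0.45 ± 0.59 in wild type EBs, within the SD in each, with 20 and 19 of the 21 probe sets higher at day 8. A pair of its probe sets went far beyond the gene in both genotypes. Probe set 4955677 was at 10.29 at day 8 and 8.36 at day 4 in *Mst-/-* EBs, against 11.20 at day 8 and 9.14 at day 4 in wild type EBs. Probe set 5479607 was at 11.42 and 10.06 in *Mst-/-* EBs, against 12.18 and 9.85 in wild type EBs on the same days. They rose by 1.93 and 1.36 in *Mst-/-* EBs and by 2.06 and 2.33 in wild type EBs. A probe set that went the other way in wild type EBs, 5448331, was at 8.88 and 7.95 in *Mst-/-* EBs, against 8.47 and 8.86 in wild type EBs. Exon arrays read a gene in stretches, so a departure of this kind shows unequal signal along the gene, and which exon each probe set reads is not analysed here.

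The PTB genes were called in none of the 4 comparisons. *Ptbp1* was at 13.11 at day 8 and 13.14 at day 4 in *Mst-/-* EBs, against 13.02 at day 8 and 13.23 at day 4 in wild type EBs. When the arrays are sorted by *Ptbp1* signal, no neighbours differed beyond the SD over its 22 probe sets. Its differences between the genotypes were -0.09 ± 0.15 at day 4 and 0.08 ± 0.19 at day 8, and it changed between the days by -0.04 ± 0.13 in *Mst-/-* EBs and by -0.21 ± 0.20 in wild type EBs, lower in 22 of 22 probe sets there. *Ptbp2*, the neural gene, was at 11.07 at day 8 and 11.20 at day 4 in *Mst-/-* EBs, against 11.11 at day 8 and 11.58 at day 4 in wild type EBs. The wild type day 4 array was the highest, with a difference between *Mst-/-* and wild type EBs of -0.38 ± 0.13 at day 4, lower in 14 of 14 probe sets, and of -0.04 ± 0.10 at day 8. *Ptbp2* changed by -0.12 ± 0.13 between the days in *Mst-/-* EBs and by -0.47 ± 0.16 in wild type EBs. Of the neuronal markers, 2 of 7 compared were higher and 1 lower in *Mst-/-* EBs at day 4, and 1 of 6 was higher at day 8.

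At day 4, taking the list as a whole, 5 of the 8 regulators were over 1.5-fold higher in *Mst-/-* EBs and 0 lower, beside 10.3% of all 11943 genes compared higher and 8.52% lower. Their median difference was 0.87, against 0.01 over all genes. At day 8, 2 were higher and 1 lower, beside 8.42% and 8.22% of 12171 genes, with medians of -0.17 and 0.05. Between day 4 and day 8, 0 of 8 were called in *Mst-/-* EBs, beside 13.3% of 12134 genes higher and 7.48% lower, with medians of -0.16 and -0.01. In wild type EBs 3 rose and 0 fell, beside 16.7% and 12.7% of 12084 genes, with medians of 0.32 and -0.02. These genes were listed for their known roles, with earlier results from these arrays known, so the counts describe the list and its background only.

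**Figure D4:**
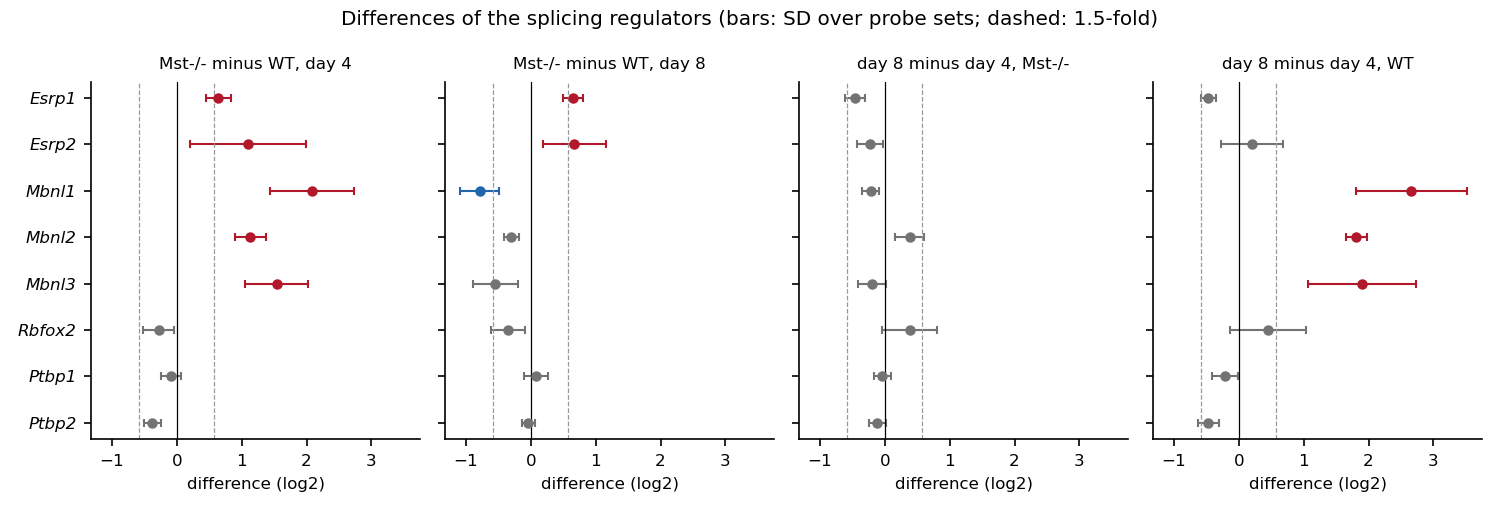
Difference of each of the 8 splicing regulators on the log2 scale (x axis) in the 4 comparisons (panels), with bars for the SD over probe sets, red and blue for genes past 1.5-fold higher and lower, and dashed lines at 1.5-fold. The MBNL genes are higher at day 4, at 2.09, 1.13 and 1.54, and lower at day 8, at -0.79, -0.30 and -0.55, where *Mbnl1* alone of them is past the line.

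Probe sets that departed from their gene were also counted, as those whose difference lay over 1.5-fold from the median difference of the gene's probe sets, among probe sets above background. At day 4, 16 of 124 probe sets of the 8 genes departed (12.9%), beside 4.50% of 141689 probe sets of all genes, and 9 of the 16 belonged to *Esrp2*. At day 8 it was 9 of 130 (6.92%), beside 3.69% of 146317. Between the days, 4 of 130 departed in *Mst-/-* EBs (3.08%, beside 4.52% of 144400) and 14 of 124 in wild type EBs (11.3%, beside 5.24% of 141856). Of those 14, 5 were in *Mbnl1*, 3 in *Mbnl3* and 3 in *Rbfox2*. No probe set of *Esrp1* or *Ptbp2* departed in any comparison.

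Transcripts known to be spliced by these proteins were followed in the same way. Among 6 ESRP targets, *Fgfr2*, the receptor whose exon choice separates epithelial from mesenchymal cells, was higher in *Mst-/-* EBs at day 4 by 1.28 ± 0.32, and *Cd44*, an adhesion receptor, differed by -0.63 ± 0.46. Neither was called at day 8. Of their probe sets, 5 of 151 departed at day 4 (3.31%) and 3 of 156 at day 8 (1.92%), shares not above those of all genes. Among 8 MBNL targets, which include *Mbnl1* and *Mbnl2* themselves, the transcription factor gene *Foxp1* was at 10.11 at day 8 and 10.54 at day 4 in *Mst-/-* EBs, against 11.04 at day 8 and 9.00 at day 4 in wild type EBs. Its highest and lowest arrays were those of the MBNL genes. *Ldb3*, a Z-disc protein of muscle and a target of both MBNL proteins and RBM20, was at 8.48 and 7.76 in *Mst-/-* EBs, against 9.63 and 7.23 in wild type EBs. Of the probe sets of the MBNL targets, 11 of 163 departed at day 4 (6.75%), 11 of 171 at day 8 (6.43%), 6 of 166 between the days in *Mst-/-* EBs (3.61%) and 18 of 164 in wild type EBs (11.0%), beside the shares of all genes given above, 4.50%, 3.69%, 4.52% and 5.24%. These counts include probe sets of the regulators already counted above. Of the 11 at day 4, 4 are in *Mbnl1* and 1 in *Mbnl2*, and of the 11 at day 8, 2 are in *Mbnl1*. Of the 6 between the days in *Mst-/-* EBs, 1 is in *Mbnl2*. Of the 18, 5 are the *Mbnl1* probe sets already counted and 7 are in *Ldb3*, which also counts among the RBM20 targets.

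None of the 4 RBFOX targets was called between the genotypes, and 0 of 66 of their probe sets departed at day 4. The 5 PTB targets include the genes *Ptbp2* and *Ptbp3* themselves. Among the 5, *Dlg4*, the postsynaptic scaffold gene whose exon PTB proteins skip, was at 9.26 at day 8 and 8.08 at day 4 in *Mst-/-* EBs, against 10.12 at day 8 and 9.14 at day 4 in wild type EBs. Its difference between *Mst-/-* and wild type EBs was -0.86 ± 0.19 at day 8 and -1.06 ± 0.42 at day 4. A probe set of *Tpm1*, a tropomyosin gene with exons that differ between muscle types, rose by 1.62 in *Mst-/-* EBs and by 2.31 in wild type EBs, against 0.62 ± 0.37 and 0.77 ± 0.53 for the gene. Of the probe sets of the PTB targets, 2 of 67 departed at day 4 (2.99%) and 0 of 67 at day 8. Between the days it was 6 of 67 in *Mst-/-* EBs (8.96%) and 1 of 67 in wild type EBs (1.49%). The shares of all genes were 4.50%, 3.69%, 4.52% and 5.24%. Of the probe sets of the 4 RBM20 targets, 11 of 106 departed at day 4 (10.4%) and 20 of 189 at day 8 (10.6%). Between the days these targets had the most departing probe sets, 36 of 133 in *Mst-/-* EBs (27.1%) and 44 of 124 in wild type EBs (35.5%). Most of these belonged to *Ryr2*, the calcium release channel of heart muscle, which was at 8.52 at day 8 and 7.23 at day 4 in *Mst-/-* EBs, against 9.22 at day 8 and 6.72, below background, at day 4 in wild type EBs. *Ryr2* is also 1 of the heart muscle markers above, and the part of its low day 4 signal in these departures was not tested.

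Other splicing genes gave a background for the list. Of 33 further regulators of alternative splicing, 8 were higher and 1 lower in *Mst-/-* EBs at day 4, led by *Rbm47*, an RNA-binding protein of endoderm and gut, at 1.18 ± 0.16, *Rbpms2*, known from smooth muscle, at 1.11 ± 0.21, and *Rbm38*, a p53 target, at 0.99 ± 0.30. *Tia1*, which helps in recognition of weak splice sites, was the gene that was lower, at -0.73 ± 0.15. At day 8, 3 were higher and 0 lower, with *Elavl2*, a neuronal Hu protein, at 1.43 ± 0.82, *Rbm47* at 0.91 ± 0.31 and *Rbpms2* at 0.60 ± 0.17. Between day 4 and day 8, 6 fell and 0 rose in *Mst-/-* EBs, among them *Celf4*, a neuronal member of the CELF family, at -1.18 ± 0.65. In wild type EBs 2 rose and 2 fell, with *Celf2*, of a family that opposes MBNL proteins in muscle, at 0.98 ± 0.74 and *Elavl2* at -1.47 ± 0.78. Their median difference was between -0.18 and 0.03 in the 4 comparisons.

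Few genes of the general splicing machinery were called between the genotypes. None of 11 SR proteins and none of 23 hnRNP proteins was called at day 4 or day 8, and the differences of the hnRNP genes lay between -0.34 and 0.19 at day 4 and between -0.21 and 0.36 at day 8. Over all genes compared, 18.9% were called at day 4 and 16.6% at day 8. Of 28 core spliceosome genes, 1 was higher at day 4 and 2 at day 8, namely *Snrpd2* at 1.95 ± 2.20 and 2.20 ± 2.48, where the SD over its 4 probe sets exceeded the difference, and *Snrpd1* at 0.82 ± 0.31 at day 8. Their median difference was 0.03 at day 4 and 0.25 at day 8, with 21 of the 28 above 0 at day 8, beside 0.05 over all genes. Between the days, 1 core gene fell in *Mst-/-* EBs, with a median of -0.17 over the 28, and 9 fell in wild type EBs, with a median of -0.50. Over all genes compared, 7.48% fell in *Mst-/-* EBs and 12.7% in wild type EBs. The wild type decreases were led by *Prpf4*, a protein of the U4/U6 particle, at -0.95 ± 0.16, *Snrpd1*, an Sm ring protein, at -0.86 ± 0.26, and *Sf3a3*, of the U2 particle, at -0.82 ± 0.30. In each genotype 27 of the 28 were below 0. *Srsf1*, the founding SR protein, fell by 0.59 ± 0.20 in wild type EBs and was the only SR or hnRNP gene called in any of the 4 comparisons.

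**Figure D5:**
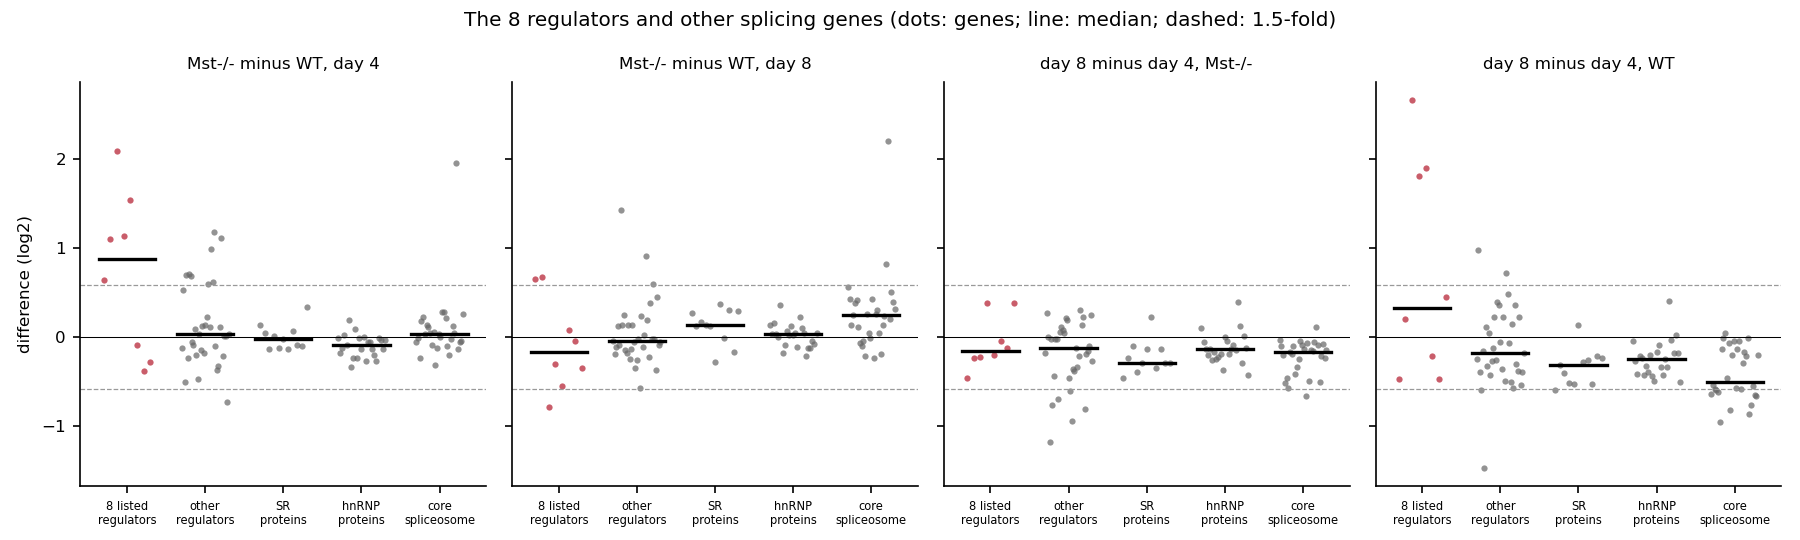
Difference of each gene on the log2 scale (y axis) for the 8 listed regulators in red and for 4 lists of other splicing genes in grey (x axis) in the 4 comparisons (panels), with a line at each median and dashed lines at 1.5-fold. The medians of the 8 regulators are 0.87 at day 4 and -0.17 at day 8, and the core spliceosome genes have a median of -0.50 between the days in wild type EBs.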

How the data were processed

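Total RNA of *Mst-/-* and wild type EBs was measured on exon arrays (Affymetrix mouse 1.0 ST), a single array for each genotype at each day. The authors deposited log2 signals, 1 value per probe set and array. For the software, the submitters' notes give Affymetrix Expression Console, and the methods give Partek, Genespring and a 1.5-fold threshold. The normalization is not stated in the sources used here. Arrays of ES cells are not analysed here.

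Of 229581 probe sets, 209279 had 1 gene symbol and were used, 4446 had several and 15856 none. Symbols were brought to RefSeq names (14190 of 16380 current, 2145 through a synonym, 45 kept as written). No further scaling was applied, since the arrays, each sorted by signal, were within 0.17 of each other at every rank. A gene below background on 1 of the arrays compared was given a bound ("at least"). Departing probe sets were counted in genes with at least 5 probe sets. The procedure was tested on simulated data. Python 3.11.15, numpy 2.4.6, pandas 2.3.3 and matplotlib 3.10.9 were used.

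Named genes were the 8 regulators, *Stk4*, the X and Y check genes, up to 3 genes called in each direction from each list and comparison, and the 3 genes most like each regulator with a range over 1. The regulators and lists were chosen with earlier results of these data known. Alternatives changed array scaling, the summary over probe sets, the background filter and the threshold. The number of arrays limits the precision.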

Additional observations from a re-analysis of the deposited data

Results flagged for a closer look

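A gene was flagged where its genotype differences had opposite signs at day 4 and day 8, with 1 of them past 1.5-fold. A pair of day changes with opposite signs in the genotypes counted likewise. The rule gave 3 genes, and on every probe set of each the day change was lower in *Mst-/-* EBs. On all 14 probe sets of *Ptbp2*, which was not flagged, it was higher, at 0.35 ± 0.20. The day change in *Mst-/-* EBs minus that in wild type EBs was -2.88 ± 0.86 for *Mbnl1* (17 probe sets), -1.43 ± 0.21 for *Mbnl2* (11 probe sets) and -2.10 ± 0.78 for *Mbnl3* (8 probe sets), on the log2 scale with the SD over probe sets. *Mbnl1* and *Mbnl3* changed by -0.22 and -0.20 in *Mst-/-* EBs and by 2.66 and 1.90 in wild type EBs, and *Mbnl2* by 0.38 and 1.81. The values rest on 1 array per genotype and day, and the difference was not tested. Each of the 3 genes had its lowest signal on the wild type day 4 array.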

How the results depend on the processing

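Each of the 8 genes was recomputed in the 4 comparisons under 6 other ways of scaling the arrays or summarizing probe sets. None of these 192 values changed sign while called, 13 moved by more than the SD over probe sets, and 9 crossed the threshold. Raising dim values to background could not change a value, since all 8 genes were above background on all 4 arrays. A median over the probe sets above background on any array kept every probe set of the 8 genes. Neither of these alternatives therefore tests the values. With the brightest probe set, 3 genes instead of 5 were called at day 4 and 1 instead of 3 at day 8, because *Esrp1* (0.37 and 0.53) and *Esrp2* (0.14 and 0.12) fell within 1.5-fold. A mean over probe sets gave 0.57 for *Esrp1* at day 4 and 0.60 for *Rbfox2* between the days in wild type EBs. With arrays centred on their medians, 1 gene was called between the days in *Mst-/-* EBs and 5 in wild type EBs, as *Esrp1* (-0.62 in each) and *Ptbp2* (-0.62 in wild type EBs) crossed the line. At a 2-fold threshold 0 genes were called at day 8. The probe sets departing from their gene then numbered 7 at day 4, 1 at day 8, 1 between the days in *Mst-/-* EBs and 7 between the days in wild type EBs, beside 0.944%, 0.690%, 0.951% and 1.32% of all probe sets. A background taken from the probe sets of receptor genes, chosen after seeing the data, left fewer probe sets to count. In the same order it gave 14 of 120, 7 of 125, 4 of 129 and 13 of 120. The shares of all probe sets were then about 3%, 3%, 3% and 4%, so the day change in *Mst-/-* EBs was not above its share. No paired analysis was possible because there was 1 array per group, and for the same reason no replicate could be left out. Signal near background limits the dim probe sets of *Esrp2*, *Mbnl1* and *Mbnl3*. Probe sets 4558580 and 4897305 of *Mbnl1* were under background on the wild type day 4 array, at 7.0 and 6.98. Over the 15 *Mbnl1* probe sets above background on all arrays, the median difference at day 4 was 2.00 and the median wild type day change 2.59.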
